A study of Mus musculus with 4 samples.

Results

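Coagulation and fibrinolysis genes were followed across 4 mouse liver arrays. The set named 39 genes: clotting factors, their inhibitors, the enzymes of clot removal and the proteins that process and export them. A probe set was taken when the platform annotation gave it exactly 1 gene symbol and that symbol was a member. Of the 39 genes, 37 had such a probe set, with 54 probe sets among the 34958 on the array that carried 1 symbol. Cpb2 and Kng2 had none and are not analysed here. Each gene was represented by its brightest probe set, and 33 of the 37 reached 4 or more on the log2 scale on at least 1 array. They were set beside the 8650 genes that did so in all.

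Clotting is a chain of proteases that cut and activate each other until thrombin, the product of F2, turns fibrinogen into fibrin. Tissue factor starts the chain, factors VIII, IX and XI amplify it, and antithrombin, protein C and tissue factor pathway inhibitor hold it back. Plasmin, made from plasminogen, later dissolves the fibrin. Most of these proteins are made by hepatocytes and secreted into plasma, while factor VIII and von Willebrand factor come mainly from endothelial cells and the A chain of factor XIII mainly from platelets and macrophages.

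The study asked what liver macrophages, the Kupffer cells, contribute to fat storage in the liver on a fat-rich diet. Male C57BL/6J mice, 8 to 12 weeks old at the start and with no genetic change named, ate a high-fat diet (45% of energy from fat) or a low-fat diet (10%) for 20 weeks, with palm oil in place of lard in both. In the last week each mouse received 2 injections into the peritoneal cavity. The 4 groups were high-fat diet with clodronate liposomes, high-fat diet with phosphate-buffered saline (PBS), low-fat diet with clodronate liposomes and low-fat diet with PBS. Clodronate liposomes are fat vesicles whose cargo kills phagocytes that swallow them. Since PBS and not empty liposomes was the control, macrophage loss, the liposomes themselves and free clodronate cannot be told apart as sources of a difference.

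Liver RNA of equal amount per mouse was pooled within each group, from 10 mice in each high-fat group and 8 in each low-fat group, and each pool was measured on 1 array. The spread between mice was therefore not measured, and the number of arrays limits the precision. Of 9 Kupffer cell markers, 6 were at least 2-fold lower with clodronate than with PBS on the high-fat diet and 7 on the low-fat diet. Timd4 (3.54) and Marco (3.77) were already below 4 with PBS on the high-fat diet, so no fall could be counted there. On the low-fat PBS array Timd4 was at 4.04, too near the floor for a 2-fold fall to show. The summed linear signal of these 9 genes was 1324 with clodronate and 5606 with PBS on the high-fat diet, and 1496 with clodronate and 6079 with PBS on the low-fat diet. Slc40a1 weighs most in the sums with clodronate. It was at 10.10 with clodronate and 10.83 with PBS on the high-fat diet, and at 10.34 and 10.84 on the low-fat diet. Clec4f and Vsig4 were above 9 with PBS and below 4 with clodronate on both diets. Of 12 macrophage and monocyte markers, 10 were analysed: Ly6c2 had no probe set with 1 symbol, and Ccr2 was below 4 on all 4 arrays. All 10 were at least 2-fold lower with clodronate on each diet. With values below 4 set to 4, their medians were -3.24 (high-fat) and -3.28 (low-fat), so the falls were at least that large. C1qa, C1qc, Adgre1 and Cd68 reached 4 only with PBS and so entered through the PBS arrays. In RNA from whole liver, fewer cells of a type and less RNA per cell cannot be told apart. The 11 hepatocyte markers analysed, those of the labelled tissue's main cell type, were at 4 or more on all arrays.

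The level of the members reached from the floor of detection to near the top of the array. Of the 33, 20 averaged 11 or more, among 654 genes at that level in all. F13a1, the A chain of factor XIII, stayed below 4 on all 4 arrays and was highest at 2.62. Plat and Plau, the tissue and urokinase activators of plasminogen, were highest at 3.01 and 2.23, and Plaur, the urokinase receptor, at 3.49. These 4 genes were too dim to compare on PBS and clodronate arrays alike.

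Across the 4 arrays the members varied little. The median range of a member from its lowest to its highest array was 0.14 on the log2 scale, against 0.30 over all 8650 genes. The range was under 0.2 for 25 members and 0.3 or more for 6. At the same high level the members did not stand far from other genes: with clodronate against PBS on the high-fat diet, all 20 members averaging 11 or more differed by under 0.2, as did 96.2% of the 654 genes at that level. On the low-fat diet that share was 94.0%, and for high-fat against low-fat diet it was 86.2% with PBS and 81.3% with clodronate. In each of these comparisons 100% of the 20 members lay within 0.2.

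**Figure D1:**
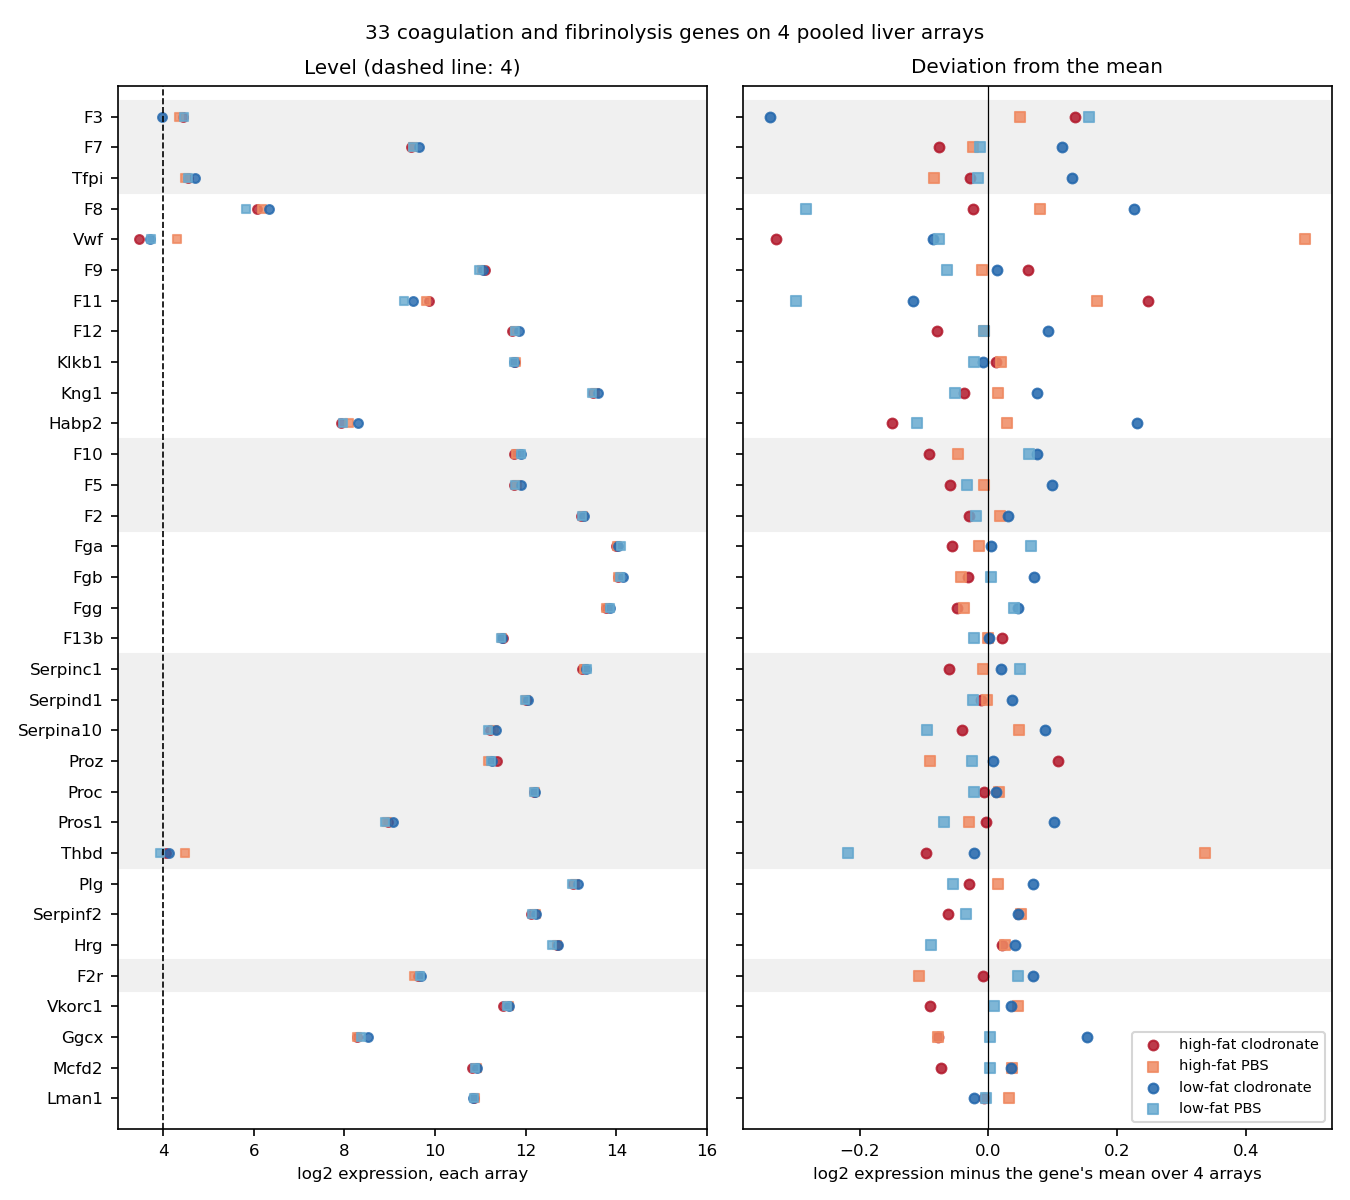
Log2 expression of the 33 measured members on each of the 4 pooled arrays (left, dashed line at 4) and the same values minus the gene's mean (right), ordered by role and shaded by role group. The symbols of 25 members lie within 0.2 of each other, and the widest spreads belong to Vwf, Thbd, F11, F8 and F3.

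The fibrinogen chains are the substrate of the whole chain of reactions, and all 3 are encoded side by side. In the RefSeq annotation of GRCm38.p6, Fgg, Fga and Fgb follow each other on chromosome 3 with no other protein-coding gene between them. In liver they are known to be induced as a group by interleukin-6, a cytokine that activated macrophages can release. Their promoters are shown because the levels of the 3 genes can be set against these sites: each sequence runs from 250 bases before the start site to 50 after it, 5′ to 3′ on the gene's strand, from RefSeq's GRCm38.p6. Capitals mark matches on either strand to 3 motifs, CTGGGA (the interleukin-6 response element of fibrinogen genes), TTCNNNGAA (a STAT site) and GTTAAT (part of an HNF1 site), which did not overlap in these windows. Fgg lies at chr3:83007474-83007773 (+), Fga at chr3:83025903-83026202 (+) and Fgb at chr3:83049814-83050113 (-).
Fgg: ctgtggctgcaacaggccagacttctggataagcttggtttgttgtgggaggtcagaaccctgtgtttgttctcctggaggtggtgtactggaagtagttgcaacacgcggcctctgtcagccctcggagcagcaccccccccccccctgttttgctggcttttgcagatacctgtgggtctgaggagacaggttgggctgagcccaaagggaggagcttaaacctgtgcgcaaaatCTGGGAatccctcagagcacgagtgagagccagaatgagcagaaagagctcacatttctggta
Fga: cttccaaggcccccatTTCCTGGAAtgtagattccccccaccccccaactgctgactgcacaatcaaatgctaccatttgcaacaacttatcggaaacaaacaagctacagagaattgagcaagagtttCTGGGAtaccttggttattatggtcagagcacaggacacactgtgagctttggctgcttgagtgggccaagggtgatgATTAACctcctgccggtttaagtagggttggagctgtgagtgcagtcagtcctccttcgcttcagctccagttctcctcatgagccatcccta
Fgb: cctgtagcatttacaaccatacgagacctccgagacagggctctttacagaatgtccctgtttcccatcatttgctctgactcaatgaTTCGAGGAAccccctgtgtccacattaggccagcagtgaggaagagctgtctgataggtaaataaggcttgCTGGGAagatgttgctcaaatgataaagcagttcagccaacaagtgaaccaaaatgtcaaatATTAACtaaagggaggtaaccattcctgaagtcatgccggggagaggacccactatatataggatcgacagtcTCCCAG

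CTGGGA was present in the windows of all 3 chains. Counting from the start site, its first base was at -13 in Fgg, at -121 in Fga, and at -91 in Fgb, where a second match lay on the other strand at 44. The same letters were present in 31.8% of the 32851 promoters of the table and in 14 of the 30 members with a promoter there. TTCNNNGAA was present in Fga and Fgb, in 4 of the 30 members and in 8.30% of all promoters. GTTAAT was also present in Fga and Fgb, in 6 of the 30 members and in 7.10% of all promoters. A match to these letters is a description of the sequence, not a measured binding site.

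The fibrinogen chains held their level in all 4 groups. Fga was at 13.98 with clodronate and 14.02 with PBS on the high-fat diet, and at 14.04 with clodronate and 14.11 with PBS on the low-fat diet. Fgb was at 14.05 with clodronate and 14.03 with PBS on the high-fat diet, and at 14.15 with clodronate and 14.08 with PBS on the low-fat diet. For Fgg, the high-fat arrays read 13.77 with clodronate and 13.78 with PBS, and the low-fat arrays 13.86 with either injection. Within each diet, clodronate and PBS arrays differed by under 0.1 in all 3 chains. The high-fat array was the lower one in all 3 chains with either injection, also by about 0.1 or less. Under other scalings of the arrays that order was kept for Fgb but not for all 3 chains.

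Averaged over the diets, the clodronate differences were -0.05 for Fga (95% interval -0.35 to 0.24), 0.04 for Fgb (-0.26 to 0.33) and -0.00 for Fgg (-0.30 to 0.29). Averaged over the injections, the high-fat minus low-fat differences were -0.07 for Fga (-0.36 to 0.22), -0.08 for Fgb (-0.37 to 0.22) and -0.09 for Fgg (-0.38 to 0.21). These intervals come from limma's additive model. Its error combines each gene's own mismatch between the 2 diets or the 2 injections with a prior pooled over all genes analysed. The mismatch has 1 residual degree of freedom and the prior 3.17, so the prior set most of the width. With limma's mean-dependent prior, an alternative, the clodronate interval of Fgg was -0.12 to 0.11. The intervals with the main prior leave room for a change of up to about 0.38 in either effect. The highest value of any probe set on the arrays was 15.05, and whether probe sets this bright respond less than dimmer ones was not tested.

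F13b, the carrier chain of factor XIII, was steady too. It was at 11.50 with clodronate and 11.47 with PBS on the high-fat diet, and at 11.47 with clodronate and 11.45 with PBS on the low-fat diet. Each of the 4 pairs of arrays differed by 0.02.

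Other plasma proteins of the acute phase, which the liver raises in inflammation, and genes of interleukin-6 signalling were read on the same arrays. Of 8 genes listed as interleukin-6 and acute phase companions of fibrinogen, 7 were above 0 in the clodronate difference on each diet, with medians of 0.10 (high-fat) and 0.41 (low-fat). Of all genes, 36.4% were above 0 on the high-fat diet and 59.7% on the low-fat diet. Haptoglobin, Hp, which binds free haemoglobin, differed by 0.22 on the high-fat diet and 0.46 on the low-fat diet. Lbp, which carries lipopolysaccharide, differed by 0.36 and 0.81 on the same diets. Saa1, a serum amyloid A gene whose probe set may also read a near-identical neighbour, differed by 0.95 and 0.81. Apcs, also a plasma protein, differed by 0.04 on the high-fat diet and 0.42 on the low-fat diet. Among the signalling genes, on the same diets, Il6ra differed by 0.06 and -0.18 and Il6st by 0.02 and 0.03. Stat3 differed by 0.13 and 0.41, and Socs3 by -0.11 and 0.21. None of the 8 passed an adjusted p of 0.05 (limma, Benjamini-Hochberg over 8650 genes). With limma's mean-dependent prior 3 did, Saa1, Hp and Lbp. The difference between these genes and the fibrinogen chains was not tested.

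Fgl1, a fibrinogen-like protein secreted by hepatocytes that does not form clots, is no member but carries the fibrinogen fold. It was at 11.30 with clodronate and 11.06 with PBS on the high-fat diet, and at 11.75 with clodronate and 10.75 with PBS on the low-fat diet. Both clodronate arrays were above both PBS arrays. The mean difference was 0.62 ± 0.54 (SD, n = 2 diets), with an adjusted p of 0.944 in limma (Benjamini-Hochberg).

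**Figure D2:**
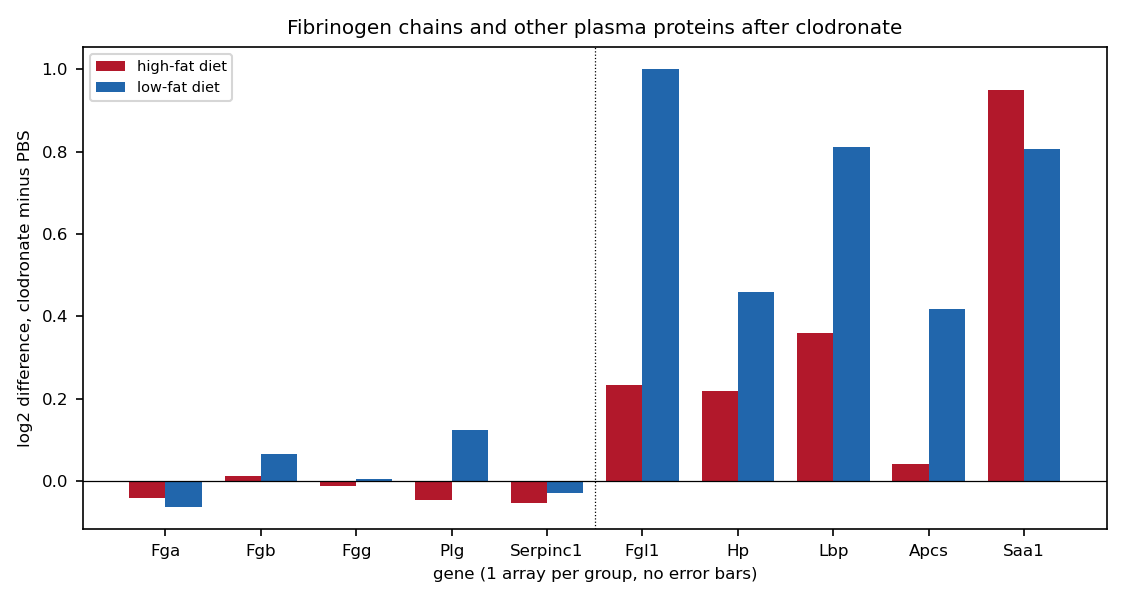
Clodronate minus PBS difference (log2) on the high-fat and the low-fat diet for 5 members left of the dotted line and, right of it, Fgl1 and the 4 plasma proteins among the acute phase companions; bars are single pairs of pooled arrays with no error bars. The bars of Fga, Fgb and Fgg stay under 0.1 in size, while those of Saa1 reach 0.95 and 0.81.

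Tissue factor and its partners start clotting. F3, tissue factor itself, is a receptor made by cells outside the blood vessel lining and was near the floor: 4.44 with clodronate and 4.36 with PBS on the high-fat diet, 3.97 with clodronate and 4.46 with PBS on the low-fat diet. Only the low-fat clodronate array was below 4, so there F3 was at least 1.38-fold lower than with PBS. F7, the protease that tissue factor activates, was at 9.46 with clodronate and 9.51 with PBS on the high-fat diet, and at 9.65 with clodronate and 9.52 with PBS on the low-fat diet. Its averaged differences were 0.04 with clodronate and -0.10 with high-fat diet. Tfpi, the inhibitor of tissue factor and F7, was at 4.54 with clodronate and 4.49 with PBS on the high-fat diet, and at 4.70 with clodronate and 4.55 with PBS on the low-fat diet. Its averaged clodronate difference was 0.10 (95% interval -0.20 to 0.40) and its diet difference -0.11 (-0.41 to 0.19).

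The other 2 Tfpi probe sets above the floor had a clodronate difference of the opposite sign on the high-fat diet. The second was at 4.11 with clodronate and 4.49 with PBS on the high-fat diet, and at 4.95 with clodronate and 4.69 with PBS on the low-fat diet. With clodronate, the high-fat minus low-fat difference was -0.83. The third, below 4 on the low-fat PBS array, had clodronate differences of -0.25 on the high-fat diet and at least 0.32 on the low-fat diet, beside -0.37 and 0.26 for the second. The second was 1 of 2 member probe sets past 1.5-fold in any pair of arrays, and neither of them was the brightest of its gene.

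The amplification and contact arm held F11, the member with the largest averaged diet difference. The gene encodes factor XI, which thrombin activates and which activates factor IX in turn. It was at 9.87 with clodronate and 9.79 with PBS on the high-fat diet, and at 9.51 with clodronate and 9.32 with PBS on the low-fat diet. Both high-fat arrays were above both low-fat arrays, by 1.38-fold with PBS and by 1.29-fold with clodronate. The mean diet difference was 0.42 ± 0.07 (SD, n = 2 injections), with a 95% interval of 0.12 to 0.72. It had an unadjusted p of 0.0180 and an adjusted p of 0.383 in limma (Benjamini-Hochberg over 8650 genes), so it did not pass the threshold of 0.05. Over the alternatives its adjusted p in limma (Benjamini-Hochberg) lay between 0.0546, with a mean-dependent prior, and 0.722, with no filter on dim genes. It was the only member with an unadjusted p under 0.05 in either averaged effect, where 10.3% of all genes were so for diet. The clodronate minus PBS difference of F11 was 0.08 on the high-fat diet and 0.18 on the low-fat diet, with an averaged 95% interval of -0.17 to 0.43.

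Klkb1 encodes plasma prekallikrein, the closest relative of factor XI, and the RefSeq annotation of GRCm38.p6 puts the 2 genes next to each other on chromosome 8. Klkb1 was at 11.77 with clodronate and 11.78 with PBS on the high-fat diet, and at 11.75 with clodronate and 11.74 with PBS on the low-fat diet. Its mean diet difference was 0.03 (95% interval -0.26 to 0.33), beside 0.42 for F11. The difference between the 2 genes was not tested. Their promoters are shown because the 2 genes are close relatives and neighbours. Windows and capitals are as for the fibrinogen chains. F11 lies at chr8:45261982-45262281 (-) and Klkb1 at chr8:45294786-45295085 (-).
F11: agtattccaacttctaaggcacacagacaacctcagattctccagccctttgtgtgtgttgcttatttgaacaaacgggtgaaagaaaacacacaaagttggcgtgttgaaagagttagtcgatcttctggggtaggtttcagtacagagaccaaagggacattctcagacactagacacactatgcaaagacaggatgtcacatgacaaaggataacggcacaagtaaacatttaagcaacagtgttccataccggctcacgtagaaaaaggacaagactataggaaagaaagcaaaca
Klkb1: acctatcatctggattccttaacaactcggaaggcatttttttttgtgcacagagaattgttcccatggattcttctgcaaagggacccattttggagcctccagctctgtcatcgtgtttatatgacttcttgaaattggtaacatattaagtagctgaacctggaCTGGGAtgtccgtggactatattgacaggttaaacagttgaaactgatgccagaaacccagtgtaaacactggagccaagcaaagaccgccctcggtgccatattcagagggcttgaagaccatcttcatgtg

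The F11 window held none of the 3 motifs, and that of Klkb1 held 1 CTGGGA, with its first base at -83. The absence of these letters says nothing of other sites or of sequence outside the window.

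F8, the cofactor of factor IX made mainly by sinusoidal endothelial cells, was at 6.08 with clodronate and 6.18 with PBS on the high-fat diet, and at 6.33 with clodronate and 5.82 with PBS on the low-fat diet. The low-fat PBS array was the lowest of the 4. Against it, F8 was 1.42-fold higher on the low-fat clodronate array and 1.29-fold higher on the high-fat PBS array, and these 2 comparisons share it. On the high-fat diet clodronate differed from PBS by -0.10. The averaged clodronate difference was 0.20 (95% interval -0.30 to 0.71).

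Vwf, the endothelial protein that carries factor VIII, was above the floor on 1 array only. It was at 3.47 with clodronate and 4.29 with PBS on the high-fat diet, and at 3.71 with clodronate and 3.73 with PBS on the low-fat diet. Among the high-fat arrays, Vwf was at least 1.23-fold lower with clodronate than with PBS. From the deposited values, those below 4 included, the averaged clodronate difference was -0.42 (95% interval -1.03 to 0.20). No member had a wider interval.

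Sinusoidal endothelial markers were read beside these genes. All 12 were analysed, with a summed linear signal of 3644 with clodronate and 3598 with PBS on the high-fat diet, and of 3942 with clodronate and 3643 with PBS on the low-fat diet. Their median clodronate difference was 0.04 on the high-fat diet and 0.10 on the low-fat diet, and 0 of 12 passed the limma threshold. Single markers went both ways, from -0.75 to 0.64 on the high-fat diet and from -0.44 to 0.25 on the low-fat diet. Of these, named after their values were seen, the junction proteins Pecam1 (-0.75 and -0.26) and Cdh5 (-0.39 and -0.44) were lower with clodronate on the high-fat and low-fat diets, and Lyve1 (0.64 and 0.25) was higher on both. Their part in the values of F8, Vwf and Thbd was not tested. The 6 platelet and megakaryocyte markers, including Pf4 and Itga2b, were below 4 on all arrays, as was F13a1.

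F9, the protease that F8 assists, was at 11.10 with clodronate and 11.03 with PBS on the high-fat diet, and at 11.06 with clodronate and 10.98 with PBS on the low-fat diet. Its 4 differences lay between 0.05 and 0.08. The contact factors F12, which starts the pathway on charged surfaces, and Kng1, the kininogen that yields bradykinin, had averaged clodronate differences of 0.01 and 0.04 and diet differences of -0.09 and -0.02. Kng1 has a near copy, Kng2, which lies beside it and whose transcripts the Kng1 probe sets may also read.

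Habp2, a protease of hepatocytes that binds hyaluronan and can activate F7, was at 7.92 with clodronate and 8.10 with PBS on the high-fat diet, and at 8.30 with clodronate and 7.96 with PBS on the low-fat diet. It was lower with clodronate on the high-fat diet, by 1.13-fold, and higher on the low-fat diet, by 1.27-fold. Its second probe set, at 6.90 with clodronate and 6.72 with PBS on the high-fat diet and at 6.88 with clodronate and 6.93 with PBS on the low-fat diet, had the opposite sign in each pair. The averaged differences of the brighter probe set were 0.08 with clodronate (95% interval -0.37 to 0.54) and -0.12 with diet (-0.58 to 0.33).

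The common pathway forms thrombin. F10, the protease that cuts prothrombin, was at 11.74 with clodronate and 11.78 with PBS on the high-fat diet, and at 11.90 with clodronate and 11.89 with PBS on the low-fat diet. Both high-fat arrays were below both low-fat arrays, with an averaged diet difference of -0.14 (95% interval -0.44 to 0.16). A dimmer F10 probe set had diet differences of 0.01 with PBS and -0.14 with clodronate. F5, the cofactor of F10, had averaged differences of 0.04 with clodronate and -0.07 with diet. Prothrombin, F2, ranged from 13.22 to 13.28 over the 4 arrays, and its averaged differences were 0.00 and -0.01.

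The brakes on clotting also differed little between arrays. Serpinc1, antithrombin, was at 13.24 with clodronate and 13.29 with PBS on the high-fat diet, and at 13.32 with clodronate and 13.35 with PBS on the low-fat diet. Serpind1, heparin cofactor II, stayed between 11.99 and 12.05, and Proc, the protease that inactivates F5 and F8, between 12.18 and 12.21. Pros1, the cofactor of Proc, lay between 8.90 and 9.07. Serpina10, which inhibits F10 together with Proz, had clodronate differences of -0.09 on the high-fat diet and 0.18 on the low-fat diet. Proz itself, protein Z, was at 11.36 with clodronate and 11.16 with PBS on the high-fat diet, and at 11.26 with clodronate and 11.23 with PBS on the low-fat diet. Its high-fat difference of 0.20 was the highest of any member in that pair, and its averaged clodronate difference was 0.12 (95% interval -0.20 to 0.43). A dimmer Proz probe set had clodronate differences of 0.08 on the high-fat diet and 0.37 on the low-fat diet, beside 0.20 and 0.03 for the brightest.

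Thbd, thrombomodulin, is the endothelial receptor that turns thrombin towards protein C. It was at 4.05 with clodronate and 4.49 with PBS on the high-fat diet, and at 4.13 with clodronate and 3.93 with PBS on the low-fat diet. The high-fat PBS array was the highest, as it was for Vwf. Thbd was 1.35-fold lower with clodronate than with PBS on the high-fat diet, and at least 1.40-fold higher on the high-fat than on the low-fat diet with PBS. These 2 comparisons share the high-fat PBS array. The averaged clodronate difference was -0.12 (95% interval -0.63 to 0.39) and the diet difference 0.24 (-0.27 to 0.75).

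Of the fibrinolysis genes, 3 were measured. Plg, plasminogen, was at 13.05 with clodronate and 13.10 with PBS on the high-fat diet, and at 13.15 with clodronate and 13.03 with PBS on the low-fat diet. Serpinf2, the main inhibitor of plasmin, lay between 12.11 and 12.22. Hrg, a plasma glycoprotein that binds plasminogen and heparin, lay between 12.57 and 12.71. In all 3 the clodronate difference as deposited was below 0 on the high-fat diet and above 0 on the low-fat diet, with medians of -0.05 and 0.12. Of all genes, 36.4% were above 0 on the high-fat diet and 59.7% on the low-fat diet. The signs depended on scaling. After centring each array on its median, the high-fat differences were 0.02 for Plg, 0.06 for Hrg and -0.05 for Serpinf2. The averaged clodronate differences of the 3 genes, as deposited, were between -0.02 and 0.06.

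F2r, the thrombin receptor PAR1, was well above the floor on all arrays. It was at 9.62 with clodronate and 9.52 with PBS on the high-fat diet, and at 9.70 with clodronate and 9.68 with PBS on the low-fat diet. Its averaged diet difference was -0.12 (95% interval -0.41 to 0.18). A dimmer F2r probe set had diet differences of -0.11 with PBS and 0.11 with clodronate, beside -0.15 and -0.08 for the brightest.

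Several clotting factors need vitamin K to become active, and F5 and F8 need a cargo receptor to leave the cell. Vkorc1, which recycles vitamin K and is the target of warfarin, was at 11.50 with clodronate and 11.63 with PBS on the high-fat diet, and at 11.62 with clodronate and 11.60 with PBS on the low-fat diet. Ggcx, the carboxylase that uses vitamin K, was at 8.29 with either injection on the high-fat diet, and at 8.52 with clodronate and 8.37 with PBS on the low-fat diet. Both high-fat arrays were below both low-fat arrays for Ggcx, with an averaged diet difference of -0.16 (95% interval -0.47 to 0.15). The receptor pair Lman1 and Mcfd2 had averaged clodronate differences of -0.03 and -0.04 and diet differences of 0.03 and -0.04. A dimmer probe set of Lman1 was at 5.89 with clodronate and 6.44 with PBS on the high-fat diet, and at 6.94 with clodronate and 6.64 with PBS on the low-fat diet. With clodronate, its high-fat minus low-fat difference was -1.05, beside 0.02 for the brightest probe set.

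Averaged over diets, 0 of the 33 members passed the limma threshold for clodronate (Benjamini-Hochberg adjusted p under 0.05 over 8650 genes), where 0.00% of all genes were called higher and 0.451% lower. At an unadjusted p under 0.05, 0 members and 5.10% of all genes were counted, and with a mean-dependent prior again 0 members. That prior called 0.116% of all genes higher and 0.971% lower after adjustment, and counted 4.74% at an unadjusted p under 0.05. Averaged over injections, 0 members passed for diet, where 0.00% of all genes were called higher and 0.00% lower. At an unadjusted p under 0.05 the diet count was 1 member, F11, beside 10.3% of all genes. With a mean-dependent prior it was again 0 members after adjustment, beside 0.867% higher and 0.821% lower, and 1 member, F11, before it, beside 13.2% of all genes. The member nearest to the threshold for clodronate was Vwf by its unadjusted p of 0.136. A p that misses the threshold does not show that a gene was unchanged, so the intervals are given: they lay within 1.5-fold for 29 of 33 members in each effect. The exceptions were F3, F8, Vwf and Thbd for clodronate, and F3, Vwf, F11 and Thbd for diet. The p-values rest on these 4 arrays only, through each gene's own mismatch and a prior pooled over all 8650 genes. They do not measure the spread between mice.

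**Figure D3:**
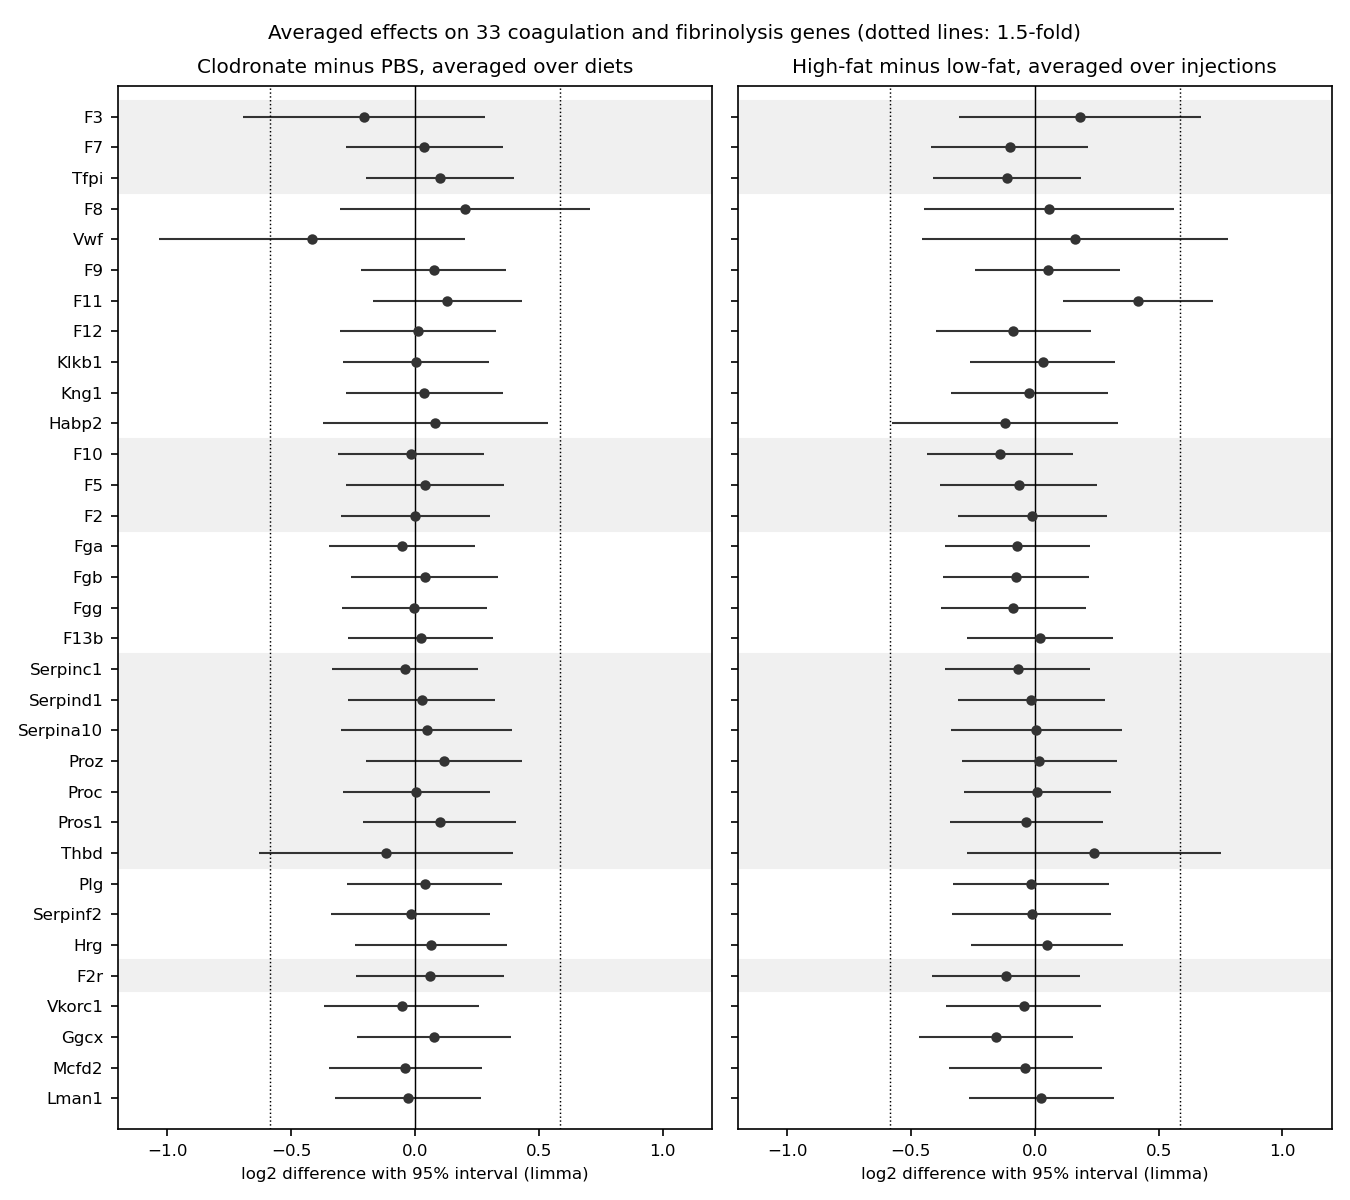
Log2 difference of each of the 33 members, clodronate minus PBS averaged over diets (left) and high-fat minus low-fat averaged over injections (right), with 95% intervals from limma and dotted lines at 1.5-fold. All intervals on the left include 0, and on the right all but that of F11, which runs from 0.12 to 0.72.

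In single pairs of arrays, which have no replicate check, 0 of 33 members differed 1.5-fold or more in any of the 4 pairs. The share of all genes that did so was 3.62% for clodronate on the high-fat diet, 3.38% for clodronate on the low-fat diet, 3.62% for diet with PBS and 6.47% for diet with clodronate. At 1.2-fold, a limit chosen after the values were seen, 2 members were lower with clodronate on the high-fat diet (Thbd and Vwf), beside 15.0% of all genes, and 0 were higher, beside 5.54%. On the low-fat diet 2 were higher with clodronate (F8 and Habp2), beside 13.1%, and 1 was lower (F3), beside 6.92%. For high-fat against low-fat diet with PBS, 4 were higher (F11, F8, Thbd and Vwf), beside 12.8%, and 0 lower, beside 10.0%. With clodronate, 2 were higher (F3 and F11), beside 7.43%, and 1 was lower (Habp2), beside 22.6%. F11 was the only member past 1.2-fold in the same direction in both diet pairs, and no member was in both clodronate pairs. The share of all genes past 1.2-fold in both pairs was not counted, so these counts have no background to be set against.

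For clodronate the median difference of the members was -0.04 on the high-fat diet and 0.07 on the low-fat diet, beside -0.05 and 0.04 over all genes. For diet it was 0.04 with PBS and -0.09 with clodronate, beside 0.00 and -0.08 over all genes. The direction of such shifts depended on the scaling of the arrays: of the 33 members, 10 were above 0 for clodronate on the high-fat diet as deposited, 24 after centring each array on its median and 16 after quantile normalization. The shares of all genes above 0 were 36.4%, 53.5% and 51.2% in that order. On the low-fat diet the counts were 28, 19 and 23, beside 59.7%, 50.8% and 48.9% of all genes. Clodronate was above PBS on both diets for 9 members (27.3%, beside 20.8% of all genes) and below on both for 3 (9.09%, beside 22.9%). The 6 that kept a higher level on both diets under all 3 scalings were F11, F9, Fgb, Ggcx, Pros1 and Tfpi (18.2%, beside 16.8% of all genes), and 0 kept a lower one, beside 16.1%. For Tfpi this holds for the brightest of its 3 probe sets above the floor, not for the others. High-fat was above low-fat with both injections under all 3 scalings for 5 members, F11, F13b, F9, Klkb1 and Lman1 (15.2%, beside 19.8% of all genes), and below for 6, F10, F12, F7, Fgb, Ggcx and Tfpi (18.2%, beside 25.7%). For Lman1 the averaged diet difference turned to -0.16 with the mean of its probe sets. In a dimmer probe set, diet with PBS was above 0 for F10 (0.01) and for Tfpi (at least 0.26). The remaining probe set above the floor of each gene was below 0 in that pair.

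**Figure D4:**
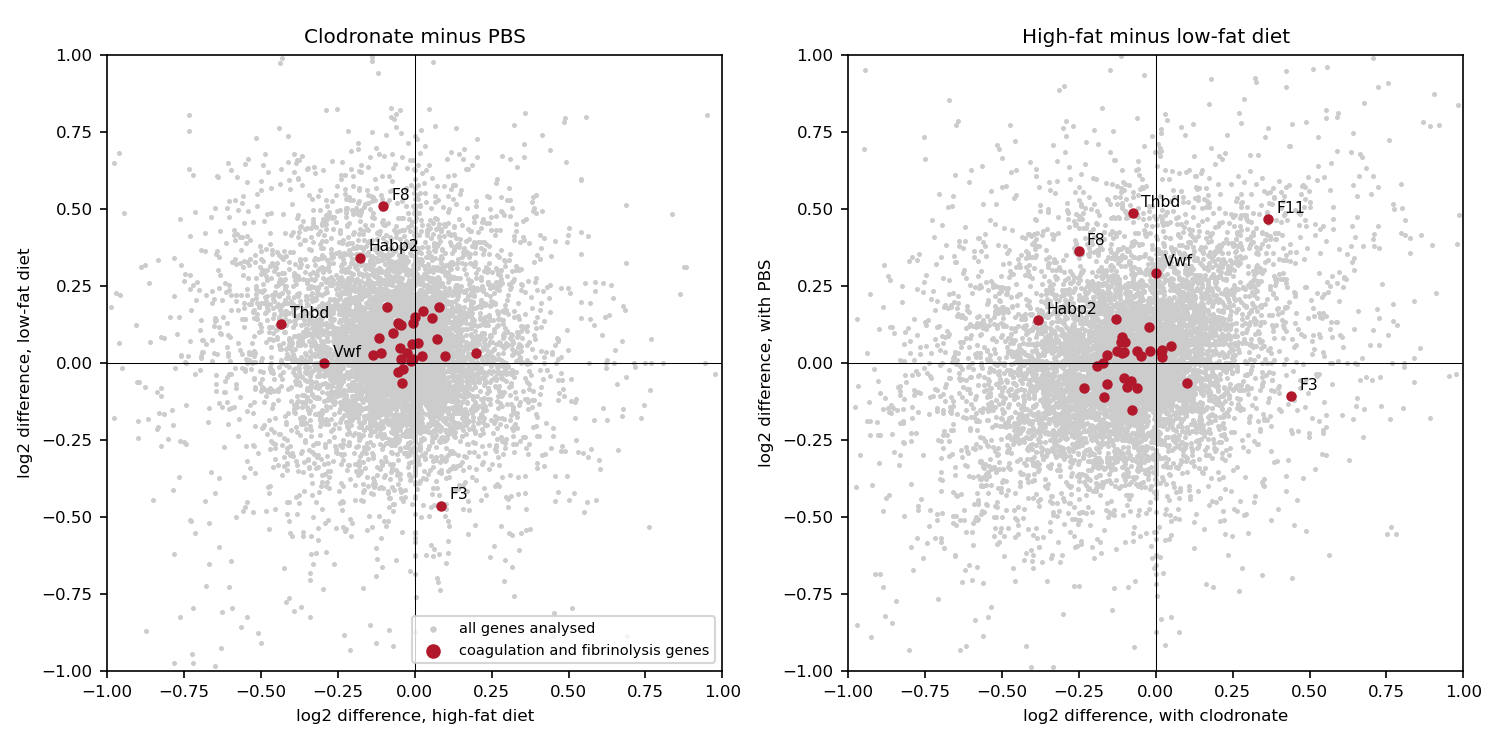
Log2 differences of the 33 members (red) over all 8650 genes (grey): clodronate minus PBS on the high-fat diet (horizontal) and the low-fat diet (vertical) in the left panel, and high-fat minus low-fat with clodronate (horizontal) and with PBS (vertical) in the right. Members past 1.2-fold in a pair are named, 104 and 129 of the other genes lie beyond the axes of the 2 panels, and F11 stands to the upper right of the diet panel at 0.36 and 0.47.

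Other genes of clotting and its control were listed apart from the members. Of 31 named, 19 were analysed and 0 passed the limma threshold in either effect or with either prior. Their median differences were -0.08 for clodronate on the high-fat diet, 0.03 for clodronate on the low-fat diet, -0.01 for diet with PBS and -0.06 for diet with clodronate. With values below 4 set to 4, Fgl1 alone was past 2-fold in a pair, by 2.00-fold with clodronate on the low-fat diet. Fgl2, a prothrombin-cleaving protein of macrophages and endothelial cells, was at 3.75 with clodronate and 4.42 with PBS on the high-fat diet, and at 3.64 with clodronate and 4.78 with PBS on the low-fat diet. Both clodronate arrays were below the floor and both PBS arrays above it, so that Fgl2 was at least 1.34-fold lower with clodronate on the high-fat diet and at least 1.71-fold lower on the low-fat diet, with an adjusted p of 0.348 in limma (Benjamini-Hochberg).

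The liver transcription factors whose sites are common in clotting gene promoters were read as well. Of 7 listed, 6 were analysed and 0 passed the limma threshold for either effect. With the mean-dependent prior 2 passed for diet, Cebpb and Dbp. Dbp, a factor of the daily clock, was at 10.85 with clodronate and 10.69 with PBS on the high-fat diet, and at 9.63 with clodronate and 9.27 with PBS on the low-fat diet. Cebpb was at 10.88 with clodronate and 10.58 with PBS on the high-fat diet, and at 10.42 and 10.26 on the low-fat diet. For Dbp and Cebpb alike, both high-fat arrays stood above both low-fat arrays, as for F11. Hnf4a, the main hepatocyte factor of clotting genes, was at 11.21 with clodronate and 11.29 with PBS on the high-fat diet, and at 11.37 with clodronate and 11.30 with PBS on the low-fat diet. The time of day at which each pool's mice were killed is not given in the sources used here, and its part in these values was not tested.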

How the data were processed

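Liver RNA of 4 groups of mice was pooled by group and read on 4 Affymetrix arrays, 1 per group. The values are the authors' deposited log2 levels of 45101 probe sets. The submitters' processing notes name GCRMA 2.24.1. Scanner files were not used here, and the genome build behind the probe sets is not given in the sources used here. GCRMA corrects probes for background by their sequence, brings arrays to a common distribution and summarises probe sets. Depth has no meaning for these values, and the number of arrays limits the precision.

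Of 35890 annotated probe sets, 34958 carried 1 symbol and 932 several. Entrez identifiers of 34754 were found in RefSeq's mouse gene table (GRCm38.p6), which changed 0 symbols. A gene was represented by its probe set with the highest mean. Genes reaching 4 on any array entered the analysis, 8650 in all. For pairs of arrays, values below 4 were set to 4, differences involving them are written as bounds, and no test was made.

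Averaged effects were fitted with limma 3.58.1 in R 4.3.3 on all 4 arrays with diet and injection as terms, 1 residual degree of freedom and 3.17 prior degrees of freedom. Benjamini-Hochberg adjustment ran over all 8650 genes at a threshold of 0.05. A mean-dependent prior was an alternative only, because on simulated data its calls held, on average, more unchanged genes than the threshold allows. Intervals are 95%. Python 3.11.15, pandas 2.3.3, numpy 2.4.6 and matplotlib 3.10.9 were used for the rest. Promoters came from RefSeq.

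The members and lists were chosen with earlier results of these data known. Values on all 4 arrays were given by rule for members called or past 1.5-fold, the fibrinogen chains, and the 4 members per direction with the largest averaged clodronate and diet differences; further members were given to describe their role group. The alternatives were 2 other scalings, other filters and floors, the mean over a gene's probe sets, each probe set on its own and other priors.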

Additional observations from a re-analysis of the deposited data

Results flagged for a closer look

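For 3 members the 2 differences of the same contrast had opposite signs, and each was larger than the median absolute difference of all genes in its pair (0.11 for clodronate on the high-fat diet, 0.12 for clodronate on the low-fat diet, 0.15 for diet with clodronate and 0.13 for diet with PBS). Each rests on single pooled arrays, and the difference between the contrasts was not tested. The share of all genes that met the same rule was not counted, so the 3 members have no background to be set against. With clodronate, Habp2 differed by -0.18 on the high-fat diet and by 0.34 on the low-fat diet. With high-fat diet, Habp2 differed by -0.38 with clodronate and by 0.14 with PBS, and its second probe set had the opposite sign in every pair. With clodronate, Thbd differed by -0.43 on the high-fat diet and by 0.13 on the low-fat diet, where the low-fat PBS array was below the floor. With high-fat diet, F8 differed by -0.25 with clodronate and by 0.36 with PBS. The sinusoidal endothelial markers had medians of -0.10 with clodronate and -0.06 with PBS in that contrast.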

How the results depend on the processing

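The count of members past the limma threshold was 0 in both averaged effects under every alternative run. The lowest adjusted p for diet (limma, Benjamini-Hochberg), always that of F11, lay between 0.0546 with a mean-dependent prior and 0.722 with no filter on dim genes. In pairs of arrays, 0 members were past 1.5-fold. With a limit of 1.2-fold, added after seeing the data, the counts were 2 for clodronate on the high-fat diet, 3 for clodronate on the low-fat diet, 4 for diet with PBS and 3 for diet with clodronate. With a floor of 3 in place of 4, 1 member was past 1.5-fold for clodronate on the high-fat diet, Vwf, with a difference of -0.82. The signs of some differences under 0.2 depended on the scaling. With the mean of a gene's probe sets, the averaged clodronate difference of F10 was 0.04 (-0.02 in the report) and the diet difference of Lman1 was -0.16 (0.03). Of 9 members with several probe sets above the floor, all probe sets had 1 sign in 6 for clodronate on each diet, in 3 for diet with PBS and in 5 for diet with clodronate. No paired analysis was possible because each group was 1 array and the labels carry no replicate numbers, and for the same reason no replicate could be left out. The brightest members are precise only as far as 4 arrays allow, and the dim ones (F3, Vwf, Thbd, Tfpi) lie close to the floor.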
